A study of Mus musculus with 12 samples.

Results

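The nuclear-encoded genes of the respiratory chain and ATP synthase were examined in mouse blood. Members were all measured features whose platform gene symbol began with Nduf, Sdha, Sdhb, Sdhc, Sdhd, Uqcr, Cox4 to Cox8 or Atp5, leaving out symbols with -ps, which mark pseudogenes. This gave 90 of 27381 features, each 1 gene: 34 subunits of complex I, 4 of complex II, 7 of complex III, 19 of complex IV, 14 of complex V and 12 assembly factors (Ndufaf and Sdhaf genes). Ndufa4 and its relative Ndufa4l2 carry complex I names but were counted with complex IV, where Ndufa4 is now placed. A total of 12 RefSeq genes under these prefixes had no feature here, among them Uqcrb, Ndufs5, Cox7c and Atp5l, and 3 pseudogene features were left out. RefSeq lists a pseudogene named after 7 of the members, among them Uqcrh, Atp5k, Atp5pb and Cox5b, and the probes could not be shown to exclude its transcripts.

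The respiratory chain sits in the inner mitochondrial membrane. Complexes I and II take electrons from NADH and succinate and pass them to ubiquinone, complex III passes them on to cytochrome c, and complex IV hands them to oxygen. Complexes I, III and IV pump protons as they do so, and complex V, the ATP synthase, uses the proton gradient to make ATP. Complexes I, III, IV and V are built from nuclear and mitochondrial gene products together, while every subunit of complex II is nuclear. In blood, leukocytes, reticulocytes and platelets carry mitochondria, and mature red cells have lost them.

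The arrays measured RNA of C57B16/J mice in 4 groups: untrained pre, untrained post, trained pre and trained post, with 3 arrays each. The strain is spelled as in the labels, and the study's text writes C57Bl6/J. All mice had surgery for head fixation at 8 to 12 weeks of age, 7 days of recovery and restricted water; trained mice learned which way to run from the position of a visual cue to earn water, and untrained (control) partners on the same kind of ball received water at random times. Pre blood came from a sinus, taken under anaesthesia when the mice had surgery, and post blood was trunk blood collected when they were killed. The collection site, the age, the surgery and the limited water therefore differ between pre and post in both groups and cannot be told apart. Each array held 1 globin-depleted pool of RNA from 7 mice, drawn from 16 males and 18 females, 34 in all, which is fewer than separate pools would need, and the labels do not say whether pools share animals, while the study's text describes more mice than the labels do and calls its first pair of pools in each condition unique. The p-values therefore measure the spread between these pools. Replicates 1 and 2 of every group were batch 1 and replicate 3 was batch 2. Values are log2 intensities, in which a difference of 1 is a doubling, and a level of 1 gene cannot be set against that of another.

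One array stood apart before any comparison was made. Array medians lay between 1.436 and 1.519, and the lowest Pearson r between any pair of arrays was 0.9469 across features. The first untrained pre array, however, held the highest value of the 12 for 29 of 90 members (32.2%), against 8.28% of all features. Its score for 18 skeletal muscle markers, the mean deviation of the genes from their own means over the arrays, was 1.24, where the other 11 arrays lay between -0.43 and 0.28. Myoglobin (Mb) read 3.49 there and 1.61 to 2.28 elsewhere, and skeletal alpha-actin (Acta1) 5.66 against 3.26 to 4.83. The muscle marker Ckm did not stand out, with 3.20 there and 2.19 to 3.24 elsewhere. Muscle is rich in mitochondria. The part of this material in the results was not tested, and the main results that rest on this array are given with and without it.

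**Figure D1:**
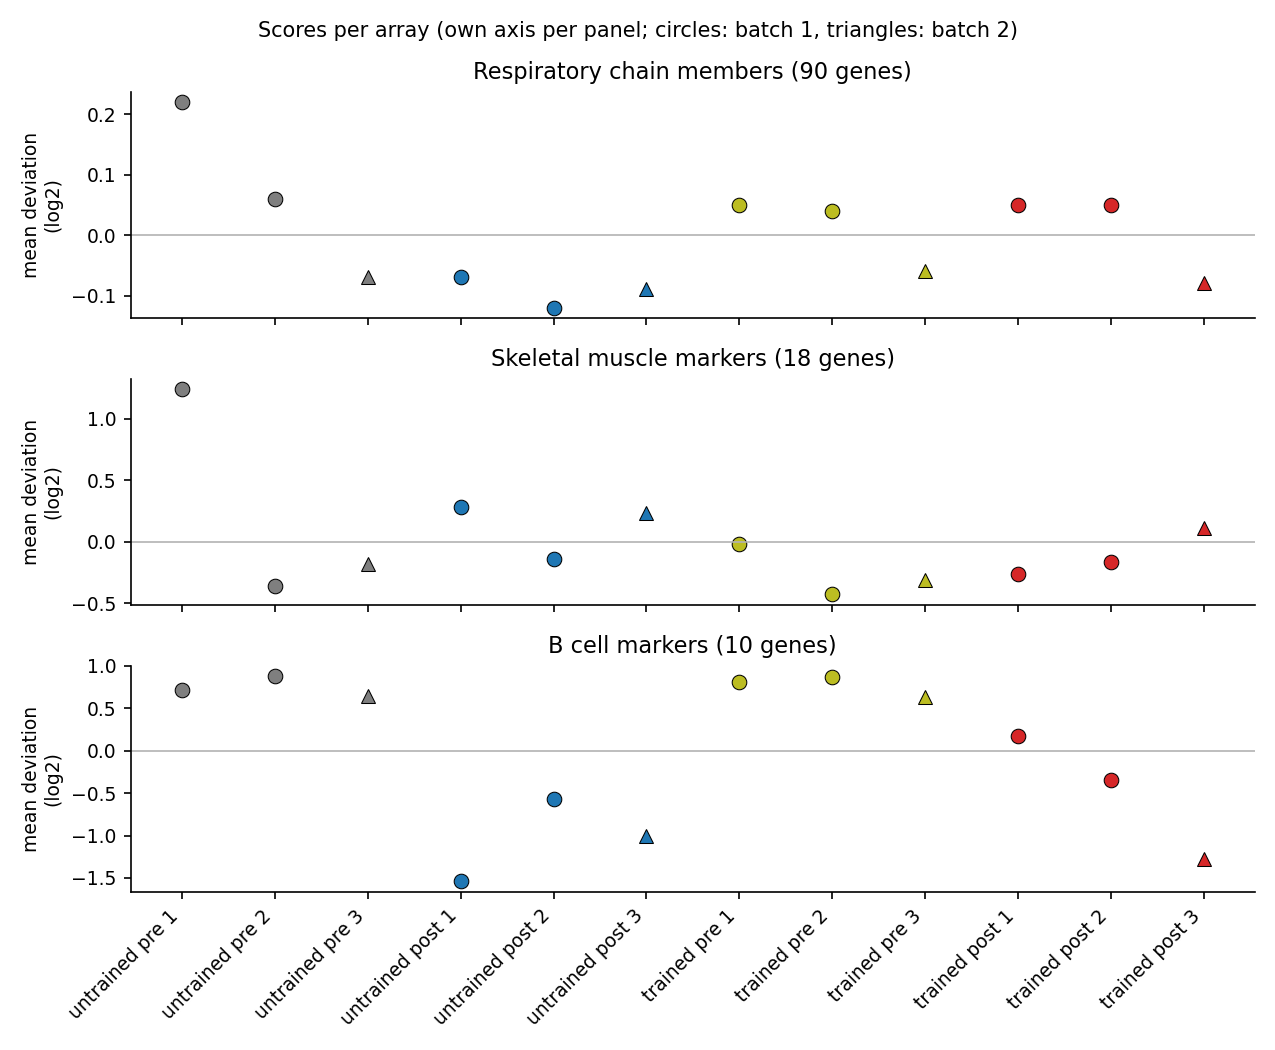
Mean deviation (log2) of the 90 members, of 18 skeletal muscle markers and of 10 B cell markers in each of the 12 arrays, with circles for batch 1 and triangles for batch 2. The first untrained pre array has the highest member score (0.22) and the highest muscle score (1.24), and B cell markers are lower in the post arrays than in the pre arrays of both groups.

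Marker RNA of the blood cells that carry the members also shifted with time. All 10 B cell markers were lower after the period in untrained mice, 7 of them past the test (median -1.90), and all 10 in trained mice, 2 past the test (median -1.20). In untrained mice all 6 NK cell markers were lower (median -0.80, 0 past the test), as were all 8 T cell markers (median -0.51, 1 past the test). In trained mice 4 of 6 NK cell markers (median -0.20) and 7 of 8 T cell markers (median -0.18) were lower, none past the test. Neutrophil markers had medians of -0.97 (2 of 7 past the test) and -0.52 (1 of 7), and platelet markers 0.53 (1 of 8) and 0.65 (2 of 8). Over all features 0.676% passed in untrained mice and 0.281% in trained mice. As scores over each marker list, the values of the 3 untrained pre and 3 untrained post arrays ran from 0.64 to 0.88 and from -1.54 to -0.57 for B cells, from 0.23 to 0.77 and from -0.73 to -0.24 for neutrophils, and from -0.25 to -0.23 and from 0.23 to 0.26 for platelets. Fewer cells of a type and less RNA per cell cannot be told apart in such samples, and the part of these shifts in the values of the respiratory chain was not tested.

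The promoters of these genes are known for motifs of nuclear respiratory factor 1 (NRF1) and of GABP, a factor of the ETS family. Of the members described below that carry such a motif, 3 are shown: Sdha and Atp5k, which were lower after the period in untrained mice, and Ndufb7, which was higher. The motif did not go with the direction in others. Ndufa11, which was higher, holds the NRF1 motif, Uqcrh, which was lower, the ETS motif, and Sdhd, also lower, both. RefSeq windows of the 250 bases before the gene start (GRCm38.p6) were held for 75 of the 90 members, and none was held for Cox4i1. Capitals mark matches to CGCANGCG (NRF1 core) or CCGGAAG (ETS core) on either strand, and no match overlapped one to the other motif.
Sdha, chr13:74350241-74350490, minus strand: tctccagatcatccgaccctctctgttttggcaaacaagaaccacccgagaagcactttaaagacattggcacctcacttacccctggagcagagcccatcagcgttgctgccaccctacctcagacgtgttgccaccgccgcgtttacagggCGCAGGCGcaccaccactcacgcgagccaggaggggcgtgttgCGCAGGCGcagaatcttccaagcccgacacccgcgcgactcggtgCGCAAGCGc
Atp5k, chr5:108434400-108434649, minus strand: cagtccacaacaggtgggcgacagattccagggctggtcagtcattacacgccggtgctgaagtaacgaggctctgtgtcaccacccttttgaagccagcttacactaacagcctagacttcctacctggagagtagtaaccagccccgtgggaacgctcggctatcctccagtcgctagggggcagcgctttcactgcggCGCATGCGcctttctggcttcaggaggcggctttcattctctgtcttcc
Ndufb7, chr8:83566508-83566757, plus strand: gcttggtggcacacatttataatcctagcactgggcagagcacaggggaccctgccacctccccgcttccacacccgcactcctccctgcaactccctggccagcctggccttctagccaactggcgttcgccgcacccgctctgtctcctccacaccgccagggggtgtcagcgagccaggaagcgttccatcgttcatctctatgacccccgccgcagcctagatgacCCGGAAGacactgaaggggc
Sdha, the flavoprotein of complex II, had 3 NRF1 cores, Atp5k, a membrane subunit of complex V, had 1, and Ndufb7, an accessory subunit of complex I, had 1 ETS core. The NRF1 core was found in 18 of 75 members (24%), against 7.65% of 27025 genes with such a window and 10.3% of 17491 protein-coding genes. The ETS core was found in 15 of 75 (20%), against 7.83% and 10.2%. Median GC content was 57.6% in members and 55.6% in protein-coding genes. Of the 18 members with an unadjusted p under 0.05 and a lower level in untrained mice after the period, 14 had a window and 5 of those held either motif, as did 29 of all 75. A match describes the letters only.

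The members were first compared with each other across the 12 arrays by their score, the mean deviation over all 90 or over 1 complex. It was 0.22, 0.06 and -0.07 in the 3 untrained pre arrays, -0.07, -0.12 and -0.09 in untrained post, 0.05, 0.04 and -0.06 in trained pre and 0.05, 0.05 and -0.08 in trained post. The batch 2 array was the lowest of its group in 3 of the 4 groups, and the untrained post arrays (highest -0.07) lay just below the trained pre arrays (lowest -0.06), while the other pairs of groups overlapped or touched. Complex III separated the 3 untrained pre arrays (0.38, 0.04 and 0.04) from the 3 untrained post arrays (-0.19, -0.09 and -0.19). Complex V separated untrained post (-0.15, -0.10 and -0.18) from trained post (0.03, 0.14 and 0.10), as well as from 3 trained pre arrays (-0.01, 0.02 and -0.06). By a narrow margin it also separated untrained post from untrained pre (0.33, -0.03 and -0.09), and trained post from trained pre. Complex II separated untrained post (-0.46, -0.05 and -0.20) from trained pre (0.15, 0.18 and 0.20). In complex I the first untrained pre array read 0.23 and the third -0.13, so 1 group spanned nearly the whole range of the 12 arrays. Assembly factors varied least, from -0.08 to 0.08.

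**Figure D2:**
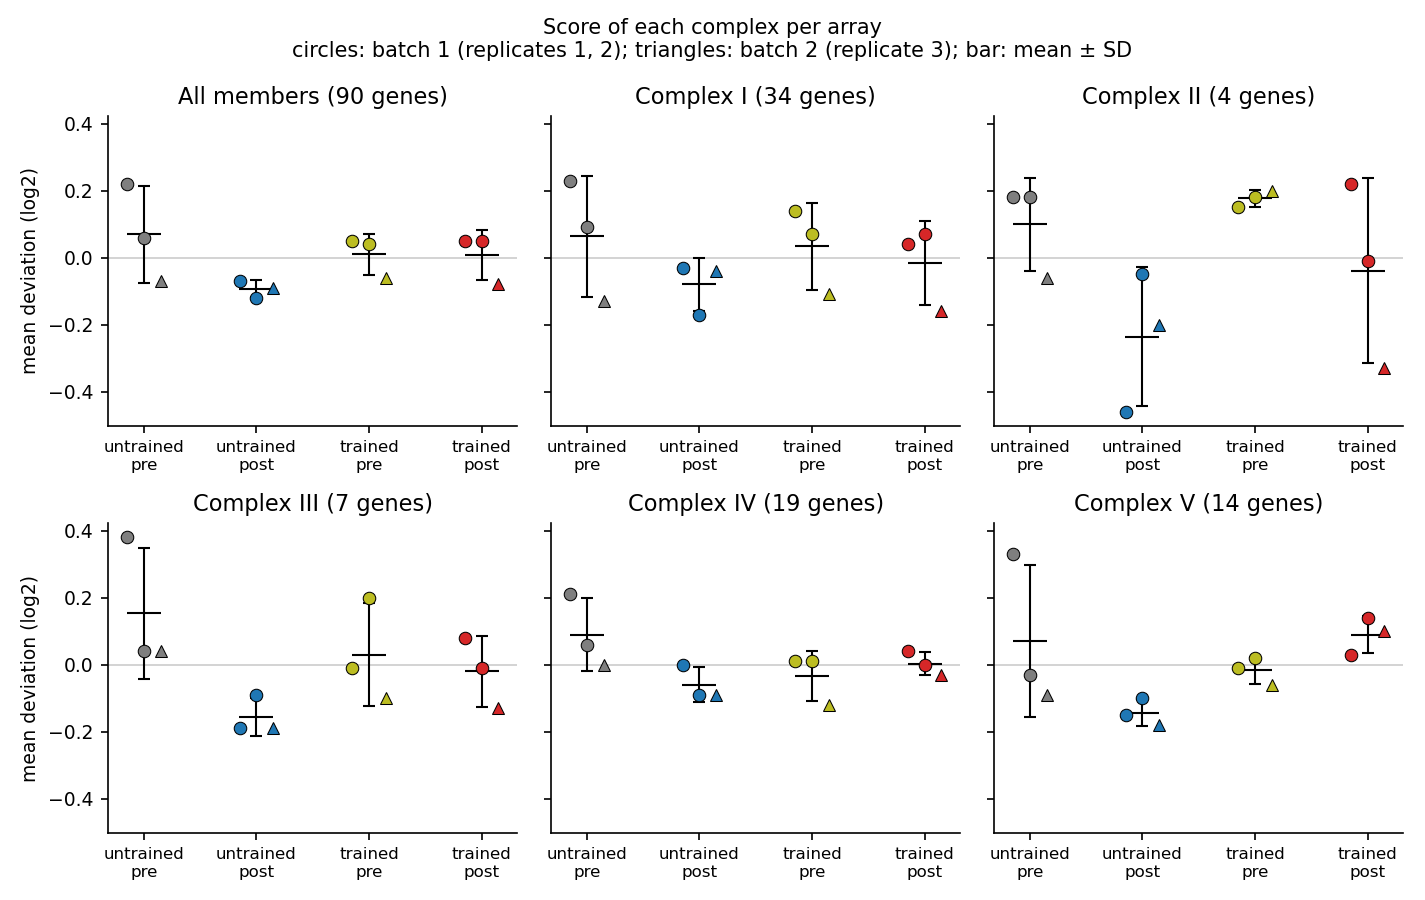
Mean deviation (log2) of all members and of complexes I to V in each array by group, with the group mean and SD over 3 arrays. In complexes I, III, IV and V the first untrained pre array is the highest of all 12, and in complex V the 3 untrained post arrays lie below the 3 trained post arrays.

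Next, post was compared with pre in untrained mice, which shared the surgery, the restriction and the handling but not the task. Of the 90 members 68 were lower after the period and 22 higher, with a median difference of -0.14 on the log2 scale, beside 0.02 over all features. Only 1 member passed the test (limma, adjusted p over all features under 0.05), against 0.676% of all features. Among the members, 18 had a lower level and 1 a higher level at an unadjusted p below 0.05, where 6.77% of all features were lower and 5.85% higher. Among features at or above the median level, which held 75 members, the share of lower features was 11.7%, and all 18 were among those 75. Arrays of the pre and post groups did not overlap for 13 members that were lower and 4 that were higher, against 8.43% and 10.3% of features.

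These counts rested in part on the first untrained pre array and on batch 1. Without that array 9 members had a lower level and 4 a higher level at that p (7.12% and 5.68% of features), the signs split 59 against 31 and the median was -0.09. Within batch 1 the median was -0.23 and within batch 2, with 1 array a group and no test, -0.005. Of the 90 members 40 were lower in both batches, 16 higher in both and 34 of opposite sign. Of the 18 lower members 16 were lower in both batches, but these were picked by a fit of the same arrays. Their agreement in sign is therefore no separate evidence. When the deposited values were quantile normalized over again, 9 members were lower and 4 higher at that p (6.1% and 6.57% of features).

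The member that passed was Cox4i1, the widely expressed isoform of the largest nuclear-encoded subunit of complex IV. Its level was 4.33, 4.63 and 4.23 in the untrained pre arrays, 3.58 in each of the 3 untrained post arrays, 3.65, 4.05 and 3.80 in trained pre and 4.16, 4.47 and 3.84 in trained post. Every untrained pre array was above every untrained post array, and all 6 trained arrays lay above untrained post as well. Cox4i1 fell by 0.81 in untrained mice (SE 0.16, 95% interval -1.16 to -0.47, 1.76-fold, limma adjusted p = 0.0417), by 0.90 within batch 1 and 0.65 within batch 2. The call was close to the threshold and was lost without the first untrained pre array (-0.88, adjusted p = 0.0559), without any other untrained array (adjusted p between 0.0623 and 0.166) and without the batch term (adjusted p = 0.0516). It was also lost without the second or the third trained pre array (adjusted p = 0.0504 and 0.057) or the first trained post array (adjusted p = 0.0515). Without the second or the third untrained pre array 0 features passed in all, while the difference of Cox4i1 was -0.72 and -0.84.

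**Figure D3:**
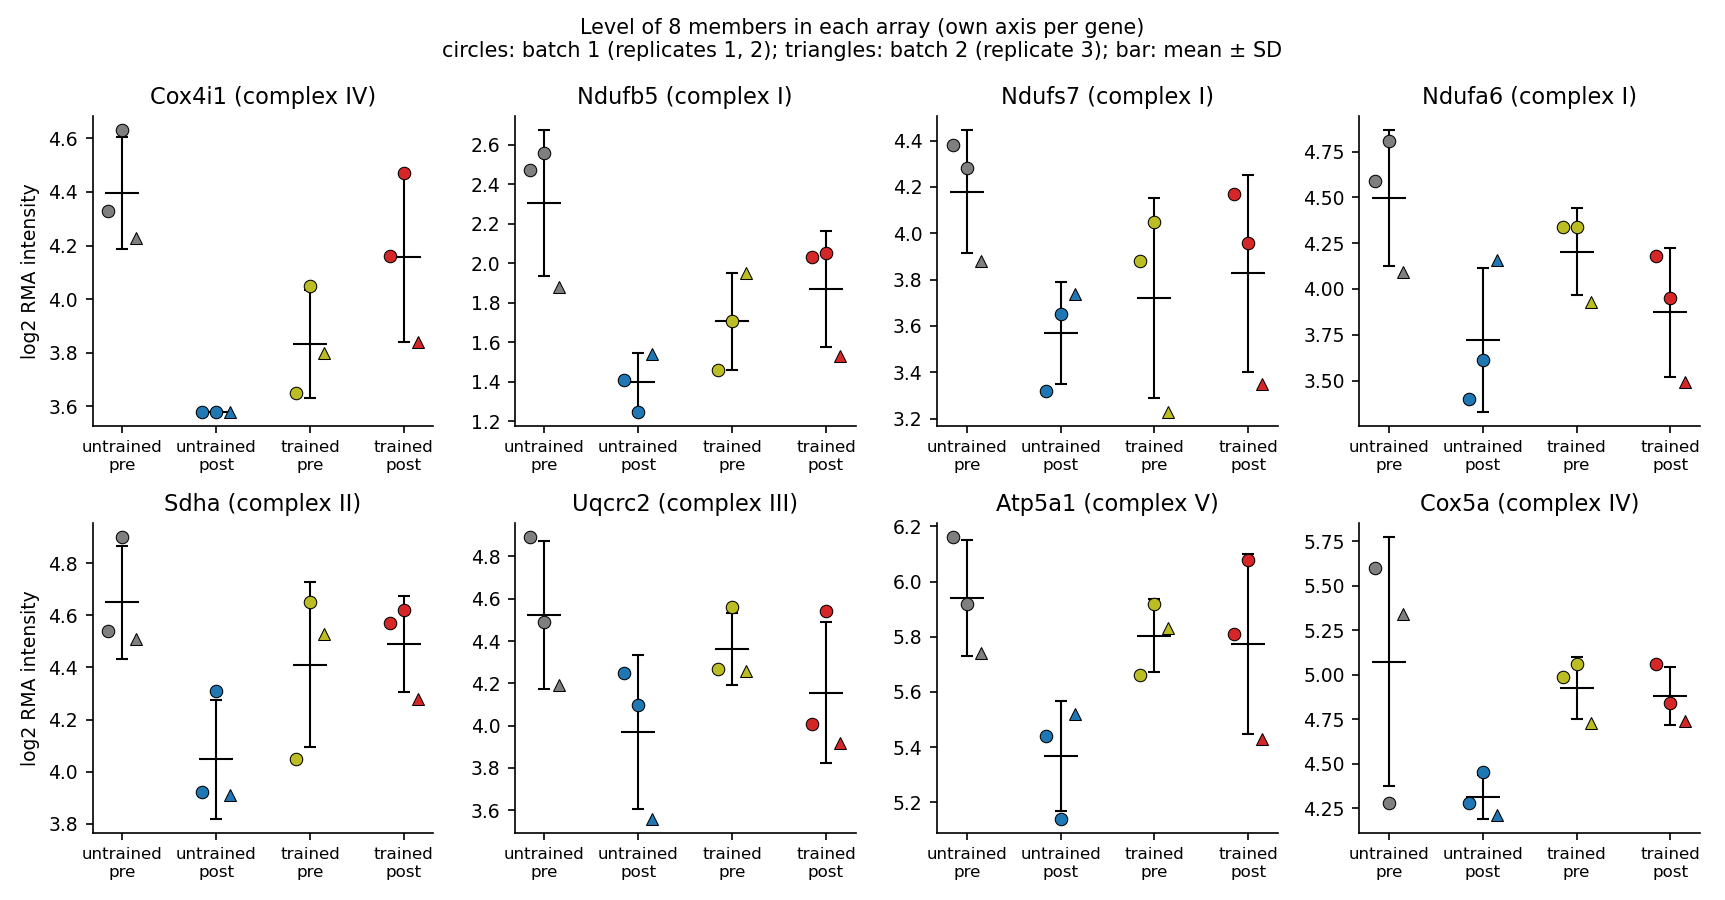
Level (log2 RMA intensity) of 8 members in each array by group, with the group mean and SD over 3 arrays, circles for batch 1 and triangles for batch 2. Cox4i1 reads 3.58 in each untrained post array and 3.65 or more in the other 9, while the other members show wider overlap between groups.

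Complex I held both the member with the largest negative difference and the one with the largest positive difference. Ndufb5, an accessory subunit of the membrane arm, read 2.47, 2.56 and 1.88 in untrained pre and 1.41, 1.25 and 1.54 in untrained post. The groups did not overlap, with a difference of -0.90 (SE 0.20, adjusted p = 0.0677). It was -0.84 without the first untrained pre array (adjusted p = 0.14), and -1.18 and -0.34 within batches 1 and 2. Ndufb5 passed the test when only features at or above the median level were tested (adjusted p = 0.042).

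The iron-sulfur proteins Ndufs7 and Ndufs8, which carry electrons towards ubiquinone, had differences of -0.61 (SE 0.20, adjusted p = 0.198) and -0.62 (SE 0.20, adjusted p = 0.203). Ndufs7 read 4.38, 4.28 and 3.88 in untrained pre and 3.32, 3.65 and 3.74 in untrained post, without overlap. Ndufs8 read 4.03, 4.12 and 3.29, then 3.17, 3.01 and 3.41, so the third arrays crossed. Its difference was -0.99 within batch 1 and 0.11 within batch 2. Ndufa6, an accessory subunit, behaved likewise, with 4.59, 4.81 and 4.09 before and 3.40, 3.61 and 4.16 after, a difference of -0.78 (SE 0.23, adjusted p = 0.159), and -1.20 and 0.06 within batches.

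Over the 34 subunits of complex I, 26 were lower and 8 higher (median -0.14), and without the first untrained pre array 22 and 12 (median -0.08). Within batch 1 the split was 27 lower and 7 higher (median -0.23), but within batch 2 it was 14 lower and 20 higher (median 0.07). The core subunits Ndufs1, Ndufs3, Ndufs7, Ndufs8, Ndufv1 and Ndufv2 were each lower, by -0.02 to -0.62. In the other direction the accessory subunits Ndufa11, Ndufb7 and Ndufa2 differed by 0.53, 0.47 and 0.41 (0.71, 0.27 and 0.41 without the first untrained pre array), and Ndufb2 was the only member with an unadjusted p under 0.05 and a higher level (0.32, SE 0.14, adjusted p = 0.381). Ndufb7 and Ndufa2 did not overlap between the groups.

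Complex II, the succinate dehydrogenase shared with the TCA cycle, had the most negative median of the 5 complexes (-0.44, and -0.36 without the first untrained pre array), from 4 members. Its median was -0.46 within batch 1 and -0.34 within batch 2. Sdha read 4.54, 4.90 and 4.51 in untrained pre and 3.92, 4.31 and 3.91 in untrained post. The arrays did not overlap and the difference of -0.61 (SE 0.18, adjusted p = 0.163) was nearly equal within batches (-0.61 and -0.59). It was -0.69 without the first untrained pre array. The membrane anchor Sdhd differed by -0.47 (SE 0.21, adjusted p = 0.392), with -0.66 and -0.08 within batches, and the other anchor, Sdhc, by -0.41. The iron-sulfur subunit Sdhb went the other way, by 0.13, a sign that turned within batch 1.

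All 7 members of complex III were lower (median -0.33, and -0.20 without the first untrained pre array, again 7 of 7). Within each batch 6 of 7 were lower (medians -0.39 and -0.26). The core proteins Uqcrc2 and Uqcrc1 led. Uqcrc2 read 4.89, 4.49 and 4.19 before and 4.25, 4.10 and 3.56 after, so the lowest pre array lay under the highest post array. The difference was -0.56 (SE 0.17, adjusted p = 0.174), -0.43 without the first untrained pre array, and -0.52 and -0.63 within batches. Uqcrc1 read 4.74, 4.25 and 4.09, then 3.99, 3.78 and 3.69, without overlap, a difference of -0.53 (SE 0.19, adjusted p = 0.243). It was -0.38 without the first untrained pre array. Uqcrh, the hinge protein, differed by -0.33 (adjusted p = 0.391; -0.20 without that array), and the Rieske iron-sulfur protein Uqcrfs1 by -0.05, with a sign that turned within batch 1.

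In complex IV 13 of 19 members were lower (median -0.12), and 12 of 19 without the first untrained pre array (median -0.09). It was 13 of 19 within batch 1 (median -0.24) but 8 of 19 within batch 2 (median 0.06). After Cox4i1 came Cox5a, a subunit on the matrix side, with 5.60, 4.28 and 5.34 in untrained pre and 4.28, 4.45 and 4.21 in untrained post. The second pre array lay with the post arrays, and the difference was -0.76 (SE 0.27, adjusted p = 0.24), or -0.49 (adjusted p = 0.469) without the first untrained pre array. Cox6c differed by -0.43 (SE 0.16, adjusted p = 0.263), without overlap between the groups. Several subunits exist as a widespread isoform and one restricted to muscle, testis, lung or other tissues. The 7 widespread forms had a median of -0.23, with 6 of 7 lower, and the 8 restricted forms a median of 0.08, with 3 of 8 lower, but 5 of those 8 (Cox7a1, Cox7b2, Cox8b, Cox8c and Ndufa4l2) lay below the median level of all features. Cox4i2, the partner of Cox4i1, read 1.71, 1.73 and 2.08 before and 1.90, 2.44 and 2.11 after, an overlapping 0.31.

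In complex V 12 of 14 members were lower (median -0.19), 9 of 14 without the first untrained pre array (median -0.08). The median was -0.25 within batch 1 and -0.06 within batch 2. Atp5a1, the alpha subunit of the catalytic F1 head, read 6.16, 5.92 and 5.74 before and 5.44, 5.14 and 5.52 after. The groups did not overlap, with a difference of -0.57 (SE 0.17, adjusted p = 0.164), -0.48 without the first untrained pre array, and -0.75 and -0.22 within batches. The beta subunit Atp5b and the gamma subunit Atp5c1 of the same head differed by only -0.09 and -0.05. Atp5k read 5.82, 5.10 and 5.16, then 4.66, 4.63 and 4.35, a difference of -0.81 (SE 0.27, adjusted p = 0.219) that was -0.81 in each batch and -0.60 without the first untrained pre array. Atp5e, the epsilon subunit, differed by 0.46. The 12 assembly factors had a median of -0.09, 7 lower and 5 higher, and none had an unadjusted p under 0.05.

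**Figure D4:**
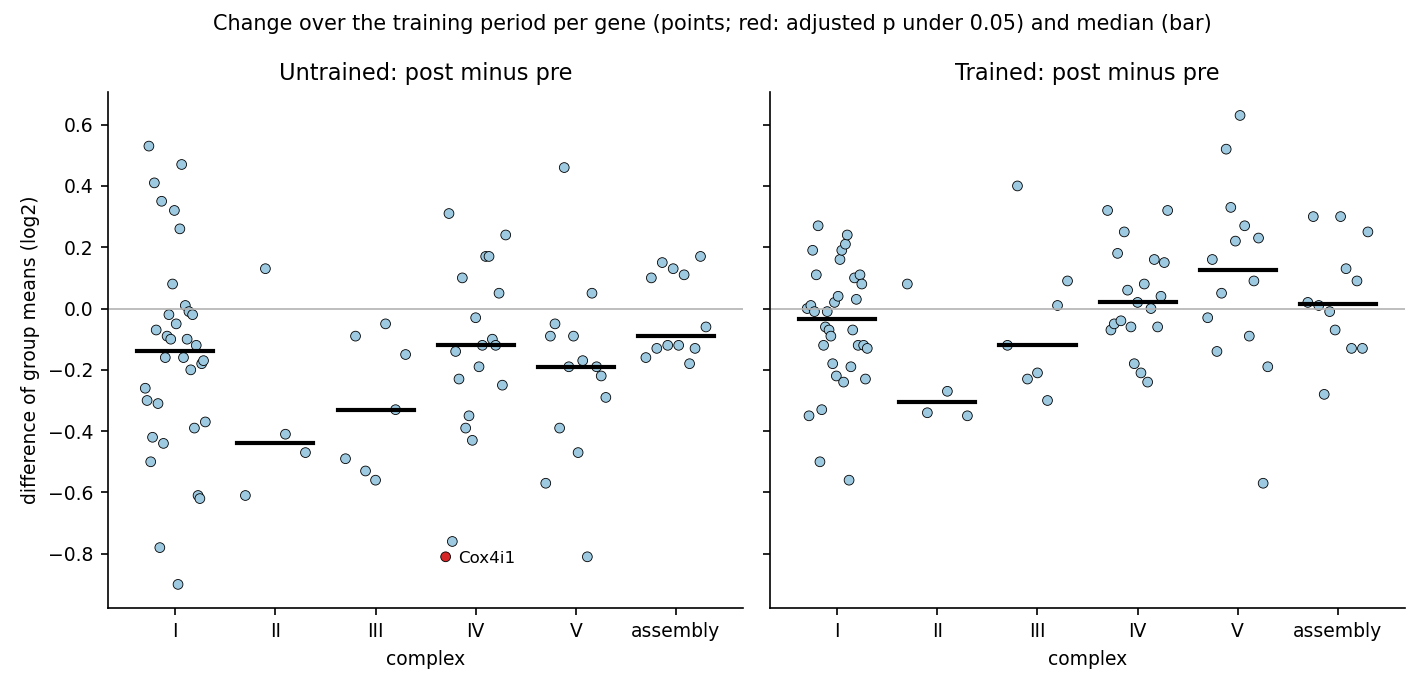
Difference between post and pre group means (log2) of each of the 90 members by complex, in untrained mice (left) and trained mice (right), with the median of each complex as a bar. In untrained mice the medians are -0.14, -0.44, -0.33, -0.12, -0.19 and -0.09 for complexes I to V and assembly factors, and Cox4i1 is the 1 member past the test; in trained mice no member passed.

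In trained mice the same comparison left the members evenly split, with 45 higher and 45 lower and a median of 0.00, as over all features (0.00). None passed the test, against 0.281% of features. Members with an unadjusted p below 0.05 were 2 higher and 2 lower, where 4.96% of features were higher and 5.41% lower, so the members' shares (of 90) were below both. The groups did not overlap for 6 higher and 3 lower members, against 8.51% and 7.78% of features. The lower members were Atp5o, the subunit that joins the F1 head to the peripheral stalk (-0.57, SE 0.22, adjusted p = 0.358), and Ndufa5, an accessory subunit of complex I (-0.50, adjusted p = 0.456). The higher ones were Atp5e (0.52, adjusted p = 0.475) and Ndufa4l2 (0.32, adjusted p = 0.465), the latter below the median level of all features.

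Atp5o read 3.09, 3.16 and 2.64 in trained pre and 2.38, 2.39 and 2.42 in trained post, without overlap, and 2.19, 2.62, 2.51 and 1.79, 2.71, 2.14 in untrained pre and post. Atp5e read 4.70, 4.32 and 4.27 in trained pre and 4.86, 4.68 and 5.33 in trained post, which overlapped. Cox4i1 differed by 0.32 (unadjusted p = 0.0636). By complex the medians in trained mice were -0.04 for I, -0.30 for II, -0.12 for III, 0.02 for IV and 0.13 for V. Complexes I, II and III had a negative median in each group of mice. Within batch 2, however, the median of complex I was positive in both (0.07 in untrained and 0.06 in trained mice). Complex V had 9 of 14 members higher in trained mice and 2 of 14 in untrained mice, or 5 of 14 without the first untrained pre array. Of the 68 members that were lower in untrained mice, 33 were higher in trained mice.

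With the pre and post arrays of both groups together, none of the members passed, against 3.21% of all features, which is 880 features. Members with an unadjusted p below 0.05 were 12 lower and 2 higher, beside 8.14% and 7.33% of features. Without the first untrained pre array they were 8 lower and 2 higher (8.45% and 7.49% of features), and without the third untrained post array 19 lower and 4 higher (7.72% and 6.8%). The 12 lower members were lower in both batches, but they were picked by a fit that held both, so this is no separate evidence. Ndufa6 (-0.55, SE 0.16, adjusted p = 0.0979), Uqcrc2 (-0.38, SE 0.12, adjusted p = 0.128) and Uqcrc1 (-0.38, SE 0.13, adjusted p = 0.166) were first among the lower, and Atp5e (0.49, SE 0.17, adjusted p = 0.161) among the higher. Leaving out an array brought up to 2 members past the test: Cox5a without the second untrained pre array (-0.62, adjusted p = 0.0103), and Ndufa6 (-0.75, adjusted p = 0.00579) and Ndufs8 (-0.43, adjusted p = 0.0494) without the third untrained post array.

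Trained mice were then compared with untrained mice after the period, when both had given trunk blood, to ask what differed with training. No feature of the 27381 passed the test (0%). Members with an unadjusted p below 0.05 were 7 higher and 2 lower, where 3.03% of features were higher and 3.38% lower. The higher members numbered 3 without the first trained post array (2.82% of features), 4 without the second trained post array (2.57%) or the second untrained post array (3.33%) and 11 without the third untrained post array (3.17%). Of the 90 members 61 were higher in trained mice (median 0.14, all features -0.01), and the median ran from 0.05 to 0.169 with 1 array left out. Batch 1 and batch 2 did not give the same picture: the median within batch 2 was -0.005, and 36 members had opposite signs in the batches. Cox4i1 differed by 0.58 (SE 0.16, 95% interval 0.23 to 0.92, adjusted p = 0.62), with 0.73 and 0.26 within batches and no overlap between the groups.

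The other 6 higher members were Ndufs4, an accessory subunit of the matrix arm of complex I (0.38, adjusted p = 0.723), Atp5d, the delta subunit of F1 (0.40, adjusted p = 0.761), Sdha (0.45, adjusted p = 0.764), Atp5a1 (0.41, adjusted p = 0.766), Ndufb5 (0.47, adjusted p = 0.766) and Atp5h, a stalk subunit (0.71, adjusted p = 0.773). Ndufb5 differed by 0.71 within batch 1 and 0.00 within batch 2, and Atp5a1 by 0.65 and -0.08. Ndufs4 read 3.55, 3.38 and 3.27 in untrained post and 3.70, 3.99 and 3.64 in trained post, without overlap, with 0.38 and 0.37 within batches. The lower members were Cox7b (-0.49, adjusted p = 0.706), a low-level feature of complex IV, and Ndufa5 (-0.51, adjusted p = 0.766). In complex V 13 of 14 members were higher in trained mice (median 0.20), and the median was 0.24 within batch 1 and 0.22 within batch 2. For complex I those values were 0.12, 0.14 and -0.05, and for complex II 0.37, 0.42 and 0.03. In the same arrays the B cell markers had a median of 0.50, with 10 of 10 higher in trained mice, and the NK cell markers 0.59, with 6 of 6 higher, none past the test. The B cell scores overlapped, from -1.28 to 0.17 in trained post and from -1.54 to -0.57 in untrained post. Within batch 2 the trained B cell score (-1.28) lay below the untrained one. The NK cell scores also overlapped, but within batch 2 the trained score was higher (-0.52 against -0.92).

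Before the period the groups had not yet been treated differently. No feature passed the test (0%), and the members with an unadjusted p below 0.05 were 2 higher and 4 lower, beside 2.19% and 2.01% of features. The members' median was -0.06, and -0.01 without the first untrained pre array, when 1 was higher and 2 lower at that p (1.9% and 2.13% of features) and the signs split 44 higher against 46 lower in place of 32 against 58. The groups already differed in the 2 members with the smallest p in the untrained change. Cox4i1 was lower in trained mice by 0.56 (difference -0.56, SE 0.16, adjusted p = 0.999; 0 of 3 trained pre arrays reached the lowest untrained pre array) and Ndufb5 differed by -0.60 (SE 0.20, adjusted p = 0.999), with -0.93 and 0.07 within batches. Ndufs7 differed by -0.46, Ndufa4l2 by -0.35, Atp5o by 0.53 and Ndufa2 by 0.45, each with an adjusted p of 0.999. The 3 skeletal muscle scores were -0.36, -0.18 and 1.24 in untrained pre and -0.02, -0.43 and -0.31 in trained pre.

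The interaction of training and time asks whether the change over the period differed between trained and untrained mice, and so takes the difference before the period into account. It was called for 0.00365% of features, a single one, and for no member. An unadjusted p below 0.05 was found for 9 members with a positive interaction and 1 with a negative one, where the shares of all features were 2.8% and 2.87%, and of features at or above the median level 4.23% were positive, with 8 of 75 members. Without the first untrained pre array 4 were positive and 1 negative (2.76% and 2.64% of features), and the median was 0.09 in place of 0.15, while within batch 2 it was 0.01. Cox4i1 had the smallest p (1.14, SE 0.22, unadjusted p = 0.000251, adjusted p = 0.606), with 1.36 and 0.68 within batches. It joined a negative change in untrained mice to a positive value in trained mice, and the pre-period difference of -0.56 is part of it.

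Ndufb5 followed (1.07, SE 0.28, adjusted p = 0.802), with 1.64 within batch 1 and -0.07 within batch 2. Ndufs7, Ndufs8 and Sdha had interactions of 0.72, 0.70 and 0.69 (adjusted p = 0.85, 0.868 and 0.85), positive in each batch. Atp5h had 1.10 (SE 0.45, adjusted p = 0.874), but its level averaged 0.58, below the median of 1.471 over features, where a fold is uncertain in size. Ndufb2 was the negative member (-0.54, adjusted p = 0.85). By complex the medians were 0.08, 0.13, 0.34, 0.18 and 0.37 for I to V, with 12 of 14 members of complex V positive. Without the first untrained pre array they were 0.01, 0.05, 0.18, 0.09 and 0.22, with 10 of 14 positive in complex V. Within batch 2 they were -0.01, -0.12, 0.29, 0.17 and 0.12, with 8 of 14 positive in complex V. The comparisons above share their arrays, so they are not separate evidence of 1 pattern.

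Other genes of oxidative metabolism were counted from lists. Of 17 genes of the TCA cycle and pyruvate dehydrogenase, which feed NADH and succinate to the chain, 15 were lower over time in untrained mice (median -0.25) and 3 fell past the test: the NAD-dependent isocitrate dehydrogenase subunits Idh3b (-1.33, SE 0.21, adjusted p = 0.0258) and Idh3g (-0.65, SE 0.13, adjusted p = 0.0462), and the mitochondrial malate dehydrogenase Mdh2 (-0.67, SE 0.12, adjusted p = 0.0366). Idh3b read 5.21, 4.97 and 4.79 in untrained pre, 3.75, 3.87 and 3.38 in untrained post, 4.59, 4.79 and 4.61 in trained pre and 4.98, 4.36 and 3.56 in trained post. The untrained groups were apart by nearly 1 log2 unit, and the trained post arrays spread over more than that. Over all features 0.676% passed in untrained mice. In trained mice 11 of 17 were lower (median -0.13) and 0 passed, beside 0.281% of all features. At an unadjusted p under 0.05, 2 of the 17 were lower, beside 5.41% of all features. The interaction of Idh3b was 0.96 (adjusted p = 0.832). Without the first untrained pre array the 3 differences in untrained mice were -1.29, -0.64 and -0.69 for Idh3b, Idh3g and Mdh2 and no longer passed (adjusted p = 0.052, 0.0864 and 0.0559), and within batch 2 they were -1.41, -0.48 and -0.63.

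Of 41 measured assembly factors outside the prefixes, such as Surf1 and Lrpprc, 0 passed in untrained mice (median -0.03). At an unadjusted p below 0.05, 3 were lower and 1 higher, where 6.77% of all features were lower and 5.85% higher. Of 19 carriers of electrons and nucleotides, cytochrome c and the adenine nucleotide exchanger Slc25a4 among them, 0 passed, with 4 lower and 2 higher at that p (median -0.07), and of 17 transcription regulators of mitochondria 0 passed, with 2 lower and 2 higher (median -0.07). Of 17 genes of glycolysis 0 passed in untrained mice (median 0.00), and 13 were higher in trained mice (median 0.15), with Hk1, a hexokinase at the first step of glycolysis, at 0.76 (SE 0.15, adjusted p = 0.0629). With both groups of mice together, where 3.21% of all features passed, Hk1 rose (0.50, adjusted p = 0.0247). Idh3g, Idh3b, Mdh2, the glycolytic isomerase Gpi1 (-0.57, adjusted p = 0.0306) and Myc (-0.61, adjusted p = 0.0377) fell. The list of mitochondrially encoded subunits had 0 measured genes, so the nuclear and mitochondrial parts of the chain could not be set side by side.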

How the data were processed

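The authors deposited log2 intensities, the output of Robust Multiarray Average on the scans (RMA: background correction, quantile normalization and summary per Entrez gene). The tools were affy 1.62.0 and R 3.6.0 per the submitters' processing notes. Whether batches were adjusted before deposit, and the genome build of the probe sets, are not given in the sources used here. No array or feature was left out. No detection call was used, and 15 members had a mean below the median of all features (1.471).

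The model (limma 3.58.1, R 4.3.3, lmFit then eBayes) held 4 group means and a batch term (7 residual degrees of freedom), two-sided, with Benjamini-Hochberg adjustment over 27381 features and a threshold of 0.05. Members of each complex are described by counts and medians, with no test over the list. Genes were named by a rule (called members, or the 3 smallest p per direction; the extremes of each complex; core subunits and isoform pairs), and the text names a part of these, with others of an unadjusted p under 0.05. The members, lists and rule were chosen with earlier results of these data known. Alternatives were no batch term, a replicate block, a fit of only the arrays compared, batch 1 or 2 alone, testing only features at or above the median, a further quantile normalization, median centring, trend, array weights, other definitions of the members and each array left out. Deviations from the group means were correlated between same-numbered arrays: of 18 pairs 2 had an r over 0.1 (-0.19 to 0.135). With 3 arrays a group, such an r cannot show whether same-numbered pools share mice. The steps were tested on simulated data. The number of arrays limits the precision.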

Additional observations from a re-analysis of the deposited data

How the results depend on the processing

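Of 1880 values recomputed for 87 results, 1812 were counted as unchanged and 29 reversed. Unchanged meant, for a gene, the same direction and, where there was a test, the same side of the threshold. For a count of calls it meant the same count, and for a median only a move within the limit given next, whatever its sign. Of 142 medians of the members, 137 moved by less than the SD between arrays of a group (0.0886). That limit is not small beside the medians, so a median could shrink or change sign and still be counted. In trained mice it ran from -0.011 to 0.017 with 1 array left out, and in untrained mice from -0.205 to -0.088. With a replicate block, although the numbers are not known to pair the arrays, 1 member was called in untrained mice as before (Cox4i1, adjusted p = 0.0296). No count of calls in another comparison moved. Among members in untrained mice, 0 passed with no batch term, with only the arrays compared, within batch 1 and with limma's trend (adjusted p of Cox4i1 0.0516, 0.0595, 0.125 and 0.0765), and 2 passed among features at or above the median level (Cox4i1 and Ndufb5). Over all features 185 passed, against 131 with no batch term, 163 with only the arrays compared, 9 within batch 1, which has fewer arrays, 93 with the trend and 335 among features at or above the median level. The cause was not tested for the other settings. Leaving out 1 array gave 0 to 3 members: 3 (Ndufa6, Ndufs7 and Ndufs8, adjusted p = 0.0348, 0.0445 and 0.0374) without the third untrained post array, where 85 features passed, and 0 members and 0 features without the second or the third untrained pre array. In both groups together 1 member passed within batch 1 (Ndufa6), and 0 to 2 with an array left out.

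Within batch 2, where 1 array per group gave values with no test, the members' median was -0.005 after and 0.046 before the period between trained and untrained mice, -0.005 over time in untrained mice (-0.229 within batch 1) and 0.01 for the interaction. Signs also turned there for Uqcrc1 (-0.01) and Ndufb5 (0.00) after the period, for Ndufb5 (0.07), Uqcrfs1 (-0.25), Sdha (0.02), Atp5h (0.16) and Cox4i2 (-0.19) before it, for Sdha over time in trained mice (-0.24), for Sdhb in both (0.14), and for the interactions of Atp5o (0.15), Ndufb5 (-0.07) and Uqcrfs1 (0.39). Within batch 1 they turned for Uqcrfs1 (0.16) and Sdhb (-0.31) over time in untrained mice, the interaction of Sdhb (0.17) and Uqcr10 after the period (0.21), which also turned with quantile normalization (0.04) and with centred arrays (0.04). With 1 array left out the values that turned ranged from -0.22 to 0.20 for Uqcr10 after the period, -0.20 to 0.18 for Uqcrfs1 and -0.17 to 0.38 for Sdhb in untrained mice, -0.13 to 0.22 for Sdha in trained mice, and -0.05 to 0.35 for Uqcr11 and -0.26 to 0.02 for Sdhb in both. The cause of these turns was not tested.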
